A study of Mus musculus with 202 samples.

Results

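Histone modifiers and chromatin remodellers were examined as a group of 43 genes, given as a fixed list of names and taken from the raw count table of single mouse eggs, which held 23997 gene symbols. All 43 had a line in the table. The eggs came from C57Bl/6J mice, were mature oocytes resting in metaphase II (MII) until a sperm enters, and were each sequenced alone by Smart-seq2, a full-length method without molecular identifiers. Of 202 oocytes, 157 had at least 100000 gene counts and 4000 genes with a count and were kept. The mice belonged to the generations F1, F2 and F3 and descended from F0 females that had been given a high fat, high sugar diet (HFHS) or a control diet (CD), with dihydrotestosterone (DHT), an androgen, or vehicle (Veh). The kept oocytes were 13 of F1 HFHS+DHT, 14 of F1 HFHS+Veh, 8 of F1 CD+DHT and 10 of F1 CD+Veh. In F2 they were 5 of HFHS+DHT, 20 of HFHS+Veh, 25 of CD+DHT and 16 of CD+Veh, and in F3 they were 13 of HFHS+Veh, 13 of CD+DHT and 20 of CD+Veh. All groups share strain and cell stage, and the labels give no age, dose, date or sequencing batch.

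Titles and characteristics did not always match. Among the 202 oocytes, 36 contradicted their titles: 20 in the hormone (all 15 titled F1 HFHS+Veh and all 5 titled F2 HFHS+DHT) and 16 in the generation (8 titled F2 HFHS+Veh, from animals 5 and 10, named F3, and 8 titled F3 HFHS+Veh, from animal 22, named F2). Groups follow the titles. The tests over animals and the pooled comparisons of F3 HFHS+Veh with a single other group are also given without the oocytes of contradictory generation label, while all F1 HFHS+Veh oocytes carry the hormone contradiction, so their comparisons could not be given without it. F2 HFHS+DHT entered no comparison. The number before the point in a title was read as the animal; 5 animals of F2 CD+DHT, 4 of F2 HFHS+Veh, 4 of F2 CD+Veh and 2 of F3 HFHS+Veh had kept oocytes, and the other groups name no animal. Group medians ran from 434906 to 4704050 gene counts an oocyte. Oocyte markers (19 genes such as Zp3 and Gdf9) summed to between 9382 and 56564 CPM in all kept oocytes but F3 CD+Veh oocyte 21, where they summed to 290.5 CPM with 7 of the 19 at 0 and cumulus cell markers at 37218 CPM. CPM here is the count of a gene per 1000000 gene counts of an oocyte. That oocyte and F3 CD+Veh oocyte 19 (7053 CPM of cumulus markers) lay above the fence of 4041 CPM. F1 CD+Veh oocyte 8 and F2 HFHS+Veh oocyte 4.2 stood apart the other way, with cumulus markers at 44.8 and 49.4 CPM and spike-in RNA at 4.33% and 3.46% of counts.

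Histones carry methyl and acetyl groups that are written, removed and read by dedicated enzymes. Methylation of H3K4 marks active promoters and enhancers, H3K36 methylation follows transcription, and H3K9 and H3K27 methylation mark silenced chromatin. Polycomb repressive complex 2 writes H3K27 methylation, and Polycomb repressive complex 1 adds ubiquitin to H2A. Deacetylases remove acetyl groups, and remodellers use ATP to move nucleosomes. A fully grown oocyte is transcriptionally silent, so its stored RNA was made earlier and serves the egg and the early embryo, whose chromatin is reset after fertilisation.

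The result with the largest folds among these genes was a difference of the F3 oocytes, and it ran along with the base composition of the transcripts. A stretch of 120 coding bases is therefore shown for 3 genes that were lower in F3 and 3 that were higher, with G and C in capitals. These are examples picked by no set rule, and other genes contrasted less. Cbx1, lower in F3, had a transcript GC of 47.5%, and Kdm4a, higher in F3, had 53.7%. Each was read 5' to 3' on the strand of the gene, in its longest coding exon, at the place whose GC content came closest to that of the whole coding sequence. The 3 genes lower in F3 were Kdm6b (chr11:69406050-69406169, minus strand, exon 11, 74 of 120 bases G or C), Sirt6 (chr10:81622558-81622677, minus strand, exon 8, 74 of 120) and Smarca4 (chr9:21635611-21635730, plus strand, exon 4, 68 of 120), on GRCm38.
Kdm6b: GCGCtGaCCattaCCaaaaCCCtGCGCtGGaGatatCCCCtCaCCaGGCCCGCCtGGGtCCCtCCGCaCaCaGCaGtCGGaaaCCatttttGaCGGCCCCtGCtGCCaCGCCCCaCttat
Sirt6: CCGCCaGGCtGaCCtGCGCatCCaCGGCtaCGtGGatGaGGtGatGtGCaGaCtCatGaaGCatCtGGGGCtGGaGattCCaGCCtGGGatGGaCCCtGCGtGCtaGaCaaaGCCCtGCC
Smarca4: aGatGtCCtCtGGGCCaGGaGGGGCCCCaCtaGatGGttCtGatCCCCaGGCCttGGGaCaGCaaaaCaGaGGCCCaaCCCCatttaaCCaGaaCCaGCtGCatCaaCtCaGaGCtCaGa
The 3 genes higher in F3 were Bmi1 (chr2:18684354-18684473, plus strand, exon 10, 55 of 120), Rnf2 (chr1:151473099-151473218, minus strand, exon 5, 57 of 120) and Sirt1 (chr10:63322000-63322119, minus strand, exon 8, 53 of 120).
Bmi1: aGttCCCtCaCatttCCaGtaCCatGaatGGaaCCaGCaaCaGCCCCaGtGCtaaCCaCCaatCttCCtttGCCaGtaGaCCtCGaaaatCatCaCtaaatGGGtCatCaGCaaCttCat
Rnf2: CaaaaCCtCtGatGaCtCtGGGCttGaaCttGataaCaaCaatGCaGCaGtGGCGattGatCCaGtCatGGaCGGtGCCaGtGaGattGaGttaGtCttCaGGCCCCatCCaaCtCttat
Sirt1: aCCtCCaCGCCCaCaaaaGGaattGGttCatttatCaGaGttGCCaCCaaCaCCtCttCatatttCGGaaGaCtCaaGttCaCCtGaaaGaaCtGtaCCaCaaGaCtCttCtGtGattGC
The capitals are denser in the first set, which follows from the choice of genes and of stretches. In the test over animals given below, Kdm6b, Smarca4, Rnf2 and Sirt1 still passed with transcript GC adjusted, and Sirt6 and Bmi1 did not. Over the whole coding sequence GC was 61.7% for Kdm6b, 61.5% for Sirt6 and 56.6% for Smarca4. It was 43.9% for Bmi1, 45.1% for Rnf2 and 49.1% for Sirt1, whose stretch shown has 44.2%. Transcript GC was taken as the median over the annotated protein-coding transcripts of a gene. It was 59.6% for Kdm6b, 59.1% for Sirt6 and 56.0% for Smarca4, beside 40.6% for Bmi1, 45.0% for Rnf2 and 43.2% for Sirt1. Short transcripts enter this median: for Bmi1 their median length was 617 bases, below the 972 coding bases of the transcript shown.

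Per transcript length, Polycomb genes and H3K27 demethylases led the list. The authors' RPKM values (reads scaled by transcript length and library size) allow levels of genes to be set side by side. Ezh2, the catalytic subunit of Polycomb repressive complex 2 (chromosome 6, 47530139 to 47595341), came 1st with a median of 414 RPKM over all 157 oocytes. Kdm6b, which removes H3K27 methylation (chromosome 11, 69398508 to 69413675), came 2nd with 306 RPKM. Bmi1, the partner of the ubiquitin ligase in Polycomb repressive complex 1 (chromosome 2, 18677018 to 18686629), followed with 230.2 RPKM. The PRC2 subunits Eed, which binds methylated H3K27, and Suz12, the scaffold, had 195 and 107 RPKM. Rnf2, the ubiquitin ligase itself (chromosome 1, 151458004 to 151500955), had 106 RPKM and the second H3K27 demethylase Kdm6a 85.1 RPKM. The order changed between groups. By group medians Kdm6b stood above Ezh2 in F1 HFHS+DHT, F1 HFHS+Veh, F1 CD+DHT and F2 CD+Veh, and Bmi1 stood above Ezh2 in F3 HFHS+Veh (424.2 against 396.7 RPKM) and level with it in F3 CD+Veh (375.4 and 375 RPKM). All 5 PRC2 genes and both H3K27 demethylases had a median of at least 10 RPKM over all oocytes.

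**Figure D1:**
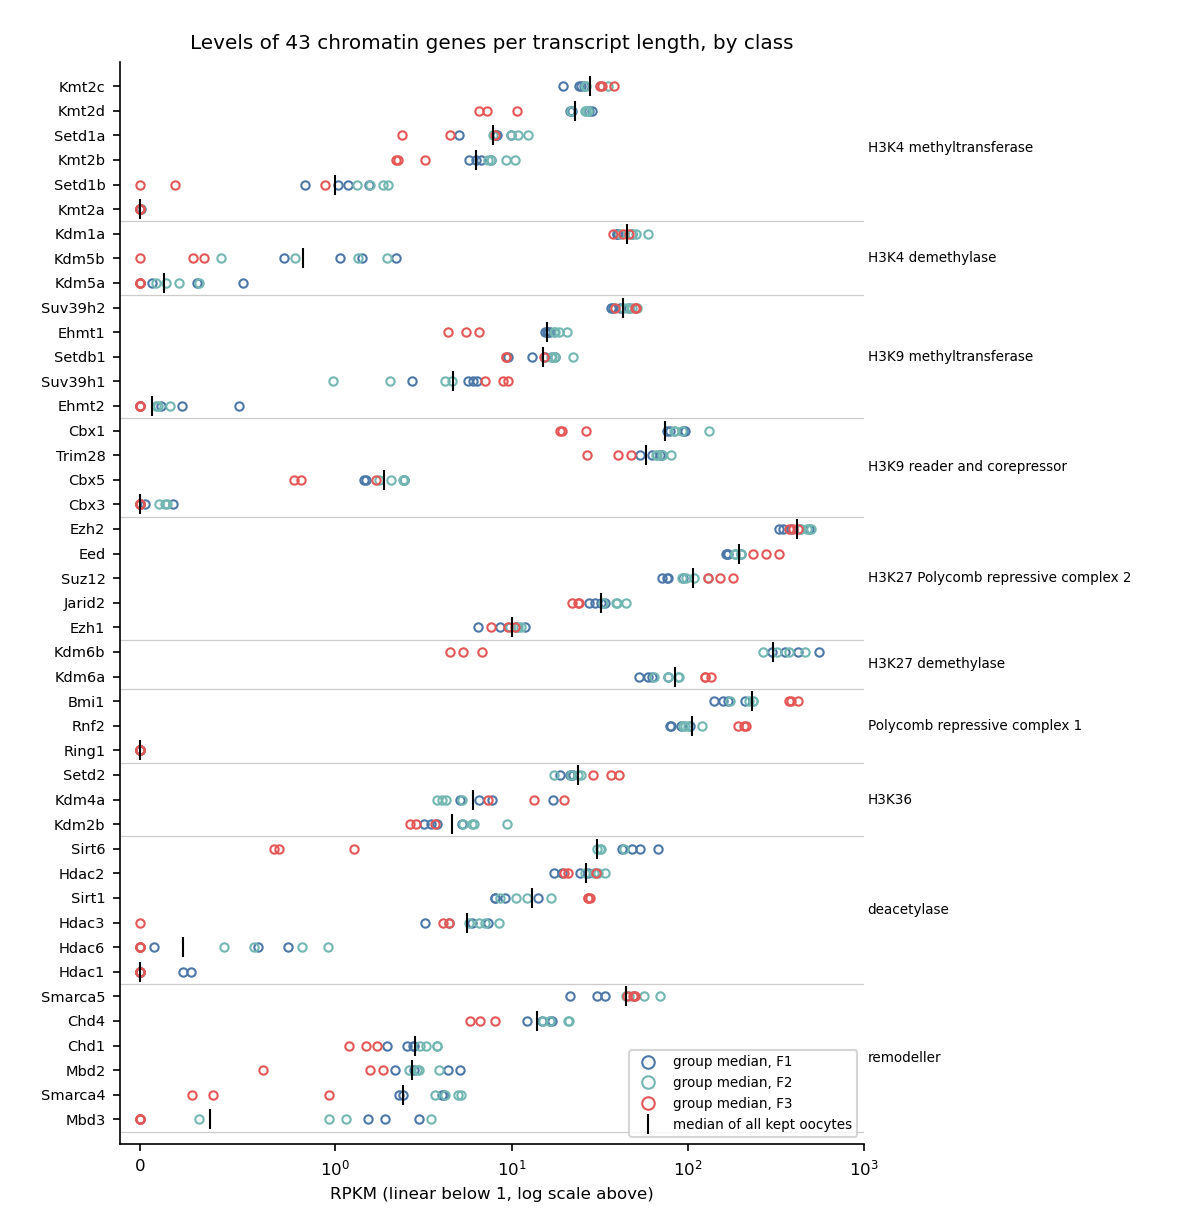
Median RPKM of each of the 43 genes, grouped by class on the vertical axis (symmetric log axis, linear below 1): open circles are the medians of the 11 groups, coloured by generation, and the black tick is the median of 157 oocytes. Ezh2 leads at 414 RPKM, and the 3 F3 circles of Kdm6b lie at 4.48 to 6.79 RPKM, apart from its other 8.

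The other classes were lower and more mixed. Of the readers of H3K9 methylation, Cbx1 had 74.6 RPKM, Cbx5 1.89 and Cbx3 a median of 0. Trim28, a corepressor scaffold, had 58.1 RPKM. H3K9 methyltransferases ran from Suv39h2 (42.8 RPKM) over Ehmt1 (15.95) and Setdb1 (15.1) to Suv39h1 (4.65) and Ehmt2 (0.0620). The H3K4 writers Kmt2c (27.9) and Kmt2d (22.79), which act mainly at enhancers, stood above Setd1a (7.81), Kmt2b (6.297) and Setd1b (0.998). Kmt2a, also an H3K4 writer, had a median of 0 RPKM and counts in 41 of 157 oocytes. Among erasers of H3K4 methylation Kdm1a had 45.1 RPKM, Kdm5b 0.836 and Kdm5a 0.122. Setd2, which writes H3K36 trimethylation, had 23.9 RPKM, beside 6.01 for Kdm4a and 4.61 for Kdm2b, which remove methyl groups from H3K36.

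Deacetylases and remodellers each had a few abundant members and several near 0. Sirt6 (30.4 RPKM; chromosome 10, 81621785 to 81627797), Hdac2 (26.43) and Sirt1 (13.07) led the deacetylases by the median over all oocytes, with Hdac3 at 5.60, Hdac6 at 0.222 and Hdac1 at a median of 0, detected in 50 of 157 oocytes. In the 3 F3 groups Sirt6 had medians of 0.685 to 1.28 RPKM, below Hdac2 (19.86 to 30.0) and Sirt1 (27.03 to 27.77), and Hdac2 also stood above Sirt6 in F2 HFHS+Veh and F2 CD+DHT. Among remodellers Smarca5, the ISWI motor, had 44.6 RPKM and Chd4, the motor of the NuRD complex, 13.998. Chd1 (2.83), Mbd2 (2.73), Smarca4 (2.42) and Mbd3 (0.360) were lower. Ring1, the paralogue of Rnf2, had counts in 7 oocytes and a median of 0. The deposited values do not tell how reads shared with pseudogenes were counted, which makes the values of Cbx3, with several annotated pseudogenes, uncertain.

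Between generations, the F3 oocytes stood apart from those of F1 and F2. Kdm6b took a median of 2683 CPM in F1, 2215 CPM in F2 and 35.2 CPM in F3. All 46 F3 oocytes lay below the median of the 111 F1 and F2 oocytes, and 44 of the 46 lay below the lowest of them (127 CPM). Sirt6, a deacetylase of H3K9, had medians of 90.4 CPM in F1, 55.9 in F2 and 1.25 in F3, with 45 of 46 F3 oocytes below the F1 and F2 median. Smarca4, the motor of the SWI/SNF complex (chromosome 9, 21616169 to 21704230), had 20.4, 27.1 and 2.35 CPM in F1, F2 and F3. Cbx1 (chromosome 11, 96789127 to 96808640) had 110.2, 115 and 25.19 CPM.

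The opposite held for a second set. Bmi1 had medians of 599.8 CPM in F1, 791 in F2 and 1417 in F3, and 44 of 46 F3 oocytes lay above the F1 and F2 median. Rnf2 had 263, 295 and 598 CPM, again with 44 of 46 above. Sirt1, an NAD-dependent deacetylase (chromosome 10, 63319005 to 63381704), had 38.5, 41.6 and 103 CPM, with 42 of 46 above. Ezh2 did not take part, with 1005 CPM in F1, 1176 in F2 and 1032 in F3. Oocytes of 1 generation are not replicates of it, so these counts describe the cells and carry no test.

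**Figure D2:**
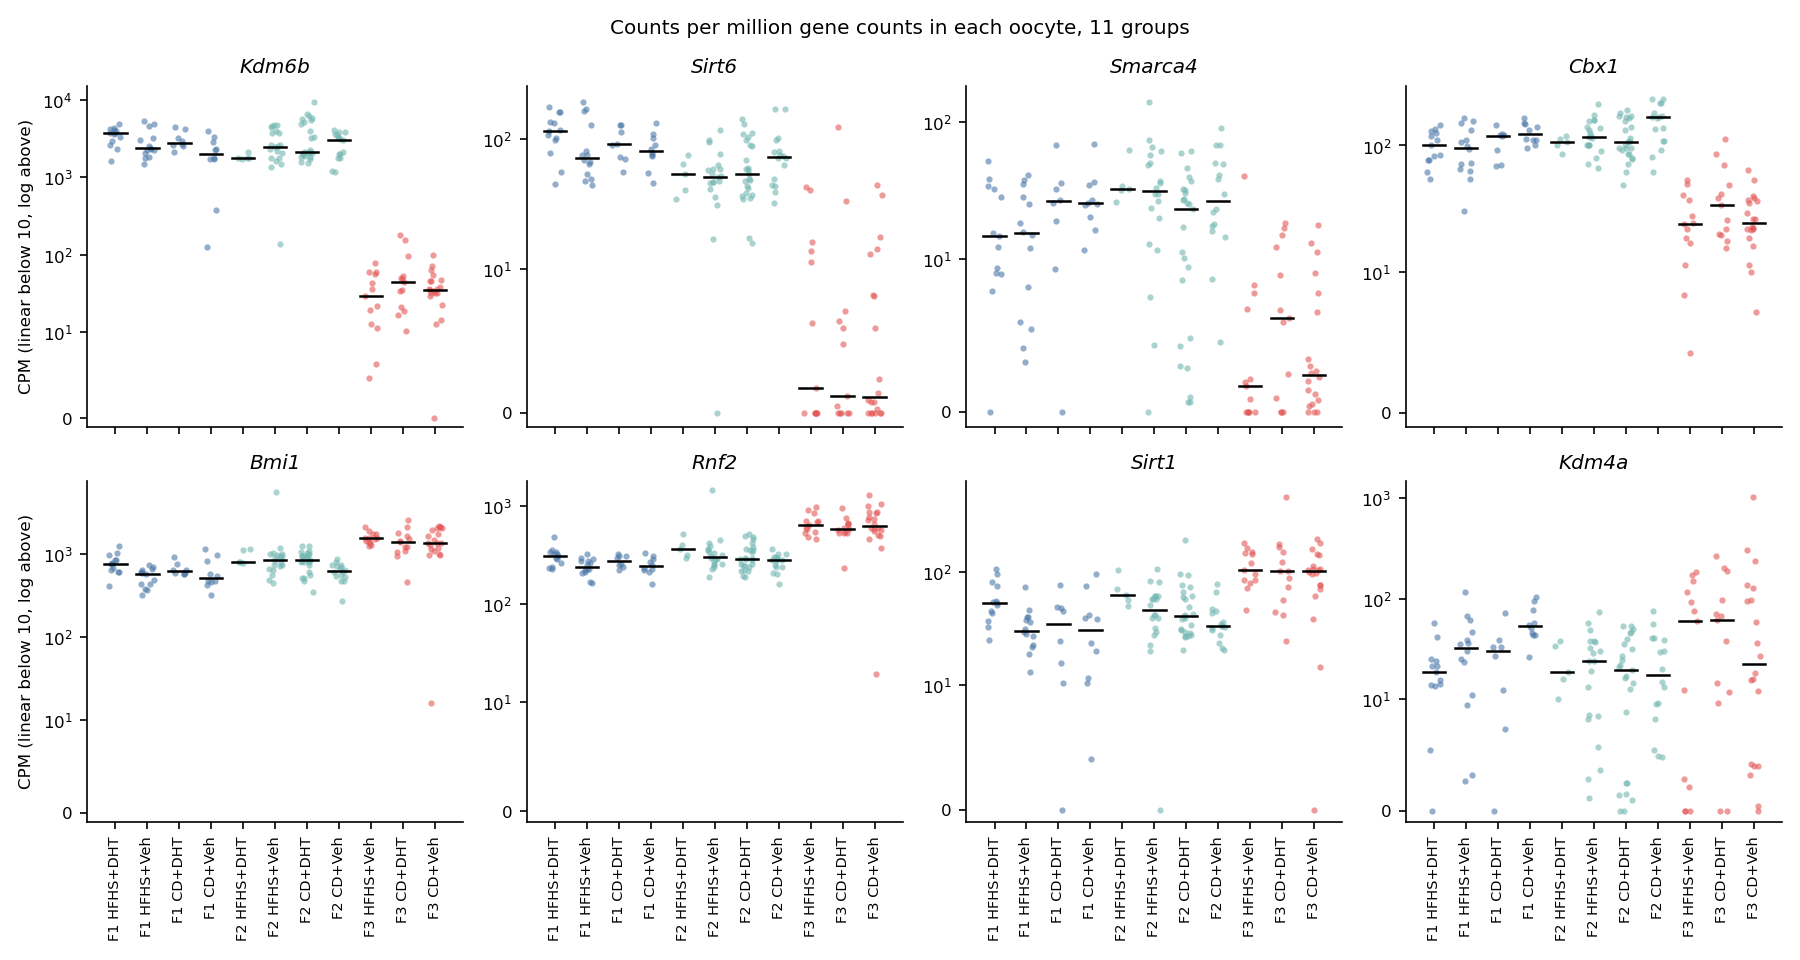
CPM of 8 genes in each of the 157 oocytes (points; symmetric log axis, linear below 10) by group, with F1 in blue, F2 in green and F3 in red; black bars are group medians. For Kdm6b, Sirt6, Smarca4 and Cbx1 the 3 F3 groups sit below the other 8, and for Bmi1, Rnf2 and Sirt1 they sit above them.

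Each treatment showed the difference on its own oocytes. Kdm6b ran from 4.63 CPM over a median of 29.7 to 79.2 in F3 HFHS+Veh, against 137, 2468 and 4773 CPM in F2 HFHS+Veh. In F3 CD+DHT the lowest, median and highest were 10.29, 45.0 and 179 CPM, against 1531, 2135 and 9432 in F2 CD+DHT. In F3 CD+Veh they were 0, 35.1 and 98.9 CPM, against 1156, 3067 and 4105 in F2 CD+Veh. The groups did not overlap in any of the 3 pairs, and the share of all genes without such overlap was not counted. The lowest F2 HFHS+Veh oocyte was 4.2, which stood apart above, and the 2 F1 CD+Veh oocytes under 1000 CPM were 7 (127 CPM) and 8 (382 CPM), with 2.66% and 4.33% spike-in.

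For the pooled counts of the 3 pairs, no oocyte served in more than 1 pair. Pooled over oocytes, Kdm6b stood at 30.9 CPM (exact Poisson 95% interval 27.1 to 35.1) in F3 HFHS+Veh and 2648 CPM (2638 to 2659) in F2 HFHS+Veh, a log2 fold of -6.42. The log2 fold was -6.57 in the CD+DHT pair (29.8 against 2835 CPM) and -5.97 in the CD+Veh pair (39.0 against 2442 CPM). Such intervals cover counting error only. The 2 CD pairs hold no oocyte with a contradictory generation label. Without those oocytes the log2 fold of Kdm6b in the HFHS+Veh pair was -5.76.

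Pair by pair, 25 of 34 chromatin genes were past 1.5-fold in either direction in HFHS+Veh, where 68.8% of genes were, 17 of 33 in CD+DHT, where 62.3% were, and 21 of 34 in CD+Veh, where 65.0% were. Without oocytes of contradictory generation label the first count was 24, where 68.4% of genes were past it. Without F3 CD+Veh oocytes 19 and 21 the last count was 22, with the share of all genes not given. Of the 43 genes, 33 reached a pooled 10 CPM in the higher group of all 3 pairs. At least 1.5-fold higher in F3 in each pair were 6 of 33 (Bmi1, Kdm4a, Rnf2, Setd2, Sirt1 and Suv39h1), where 16.7% of 6022 genes were. Setd2 fell short in the CD+DHT pair without F3 CD+DHT oocyte 14 (0.52 in place of 0.69). At least 1.5-fold lower in each pair were 8 of 33 (Cbx1, Chd4, Ehmt1, Kdm6b, Kmt2b, Kmt2d, Sirt6 and Smarca4), where 26.9% of genes were. Both shares lie near those of all genes, so by these counts the chromatin genes did not stand apart from other genes. By the same rule F2 against F1 gave 2 of 33 (Smarca5 higher, Suv39h1 lower), where 2.45% of 5925 genes passed.

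A test over animals was possible for F3 HFHS+Veh against F2 HFHS+Veh, a comparison added after the values had been seen. It used 2 animals of F3 and 4 of F2, with the other F2 animals in the same edgeR fit. Of 13315 genes, 3279 passed a Benjamini-Hochberg adjusted p of 0.05, which is 24.6%, and of 42 chromatin genes tested 18 did. Higher in F3 were 6 chromatin genes, where 9.91% of all genes were higher, and lower were 12, where 14.7% were. All 18 were among the 33 chromatin genes at a mean of at least 10 CPM, and of the 5944 genes at that level 44.0% passed. The median log2 fold was -0.65 over the 42 chromatin genes and -0.50 over all genes, and with another scaling (RLE) it was -0.48 and -0.35.

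These calls rest on how the oocytes with a contradictory generation label are placed. Placed by the characteristics instead, 0 of 12519 genes passed by edgeR (459 at an unadjusted p under 0.05), and 0 chromatin genes. That placement splits animal 5 between the compared groups, with oocytes 5.1 to 5.3 named F3 and 5.4 and 5.5 named F2. The fit did not pair them. Without those oocytes F3 was animal 26 alone, assumed to vary like the other animals, and 9 chromatin genes passed, where 1866 of 14269 genes did. Animal 22, named F2 in its characteristics, had 21.7 CPM of Kdm6b, and animal 10, whose 5 oocytes are named F3, had 4438 CPM. Without animal 22, 7 chromatin genes passed (Cbx1, Kdm6b, Kmt2b, Rnf2, Setd1a, Setd1b and Sirt1), where 11.5% of 14464 genes did, with animal 26 again alone. Without animal 26, 14 passed, where 18.2% of 14474 genes did, and Eed, Jarid2, Kdm4a and Setd1a did not. Leaving out F2 animals singly gave 16 to 19, with Setd2 lost without animal 4, 5 or 19, Eed without 4 or 19, and Jarid2 without 10, where 2861 to 3415 genes passed. Of the 18 calls, 10 were also lost on adjustment for transcript GC, as given with each gene group.

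Of the enzymes that write or remove H3K27 methylation, 1 passed, where 24.6% of all genes did. Among genes at a mean of at least 10 CPM 44.0% passed. The enzyme that passed was the demethylase Kdm6b, and it was lower in F3. It had 21.7 and 42.0 CPM in F3 animals 22 and 26, against 4438, 2489, 2037 and 2099.8 CPM in F2 animals 10, 19, 4 and 5. The groups did not overlap (log2 fold -6.33 ± 0.87 SE, edgeR adjusted p = 5.18e-05). For a gene picked as called this is no separate support, and the share of all genes without overlap was not counted. The other demethylase, Kdm6a, had a log2 fold of 0.62 and did not pass (adjusted p = 0.20). Among the non-catalytic PRC2 subunits, Eed was higher (613 and 656.5 CPM in F3, against 358 to 445 in F2; 0.91 ± 0.28, adjusted p = 0.024). Jarid2, which helps PRC2 find its targets, was lower (121 and 124 CPM in F3, against 196 to 290.0 in F2; -0.81 ± 0.26, adjusted p = 0.031), a call that adjustment for GC removed (-0.39, adjusted p = 0.51). Suz12 (0.76, adjusted p = 0.056), Ezh1 (0.10, 0.86) and Ezh2 (-0.02, 0.97) did not pass.

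Rnf2 and Bmi1, the PRC1 genes of the fixed list that were tested, were higher in F3 (Ring1 was too low to test). This did not hold for every PRC1 subunit. Of 24 further Polycomb genes in the same fit, 7 were lower and 3 higher, where 14.7% and 9.91% of all genes were. That list also holds genes outside PRC1. The PRC1 subunit Phc2 was among those lower (log2 fold -3.40, adjusted p = 6.67e-06). Rnf2 had 737 and 644 CPM in F3 animals, against 282, 311, 316 and 313 CPM in F2 animals (log2 fold 1.36 ± 0.20, adjusted p = 9.01e-05). Bmi1 had 1569 and 1538 CPM, against 888, 630.1, 842 and 941 CPM (1.09 ± 0.30, adjusted p = 0.012). F3 and F2 animals did not overlap for either gene, nor for Eed, Jarid2, Setd2 and Kdm4a. The share of all genes without overlap was not counted. These genes were picked as called in the same fit, so their lack of overlap is no separate support. Bmi1 did not pass with GC adjusted. In H3K36, the methyltransferase Setd2 was higher (359 and 281 CPM in F3, against 184 to 242 in F2; 0.82 ± 0.27, adjusted p = 0.033), but not with GC adjusted (0.63, adjusted p = 0.17). The demethylase Kdm4a was higher too, with 62.1 and 78.03 CPM in F3, against 13.015 to 36.1 in F2 (1.71 ± 0.50, adjusted p = 0.018). Its oocytes were scattered, from 0 to 183 CPM in F3 HFHS+Veh, and on means of oocyte log values (limma) its log2 fold was -0.07. Kdm2b, the H3K36 demethylase that brings PRC1 to CpG islands, did not pass (-0.89, adjusted p = 0.12).

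Of the 6 H3K4 methyltransferases, 4 were lower in F3 and 0 higher, where 14.7% of all genes were lower. The 4 are genes at a mean of at least 10 CPM, and of all genes at that level 44.0% passed in either direction. With GC adjusted 1 of the 4 passed, Setd1b, where 8.70% of genes were lower. Setd1b had 1.91 and 0.576 CPM in F3 animals 22 and 26, against 16.1, 16.8, 13.26 and 24.4 CPM in F2 animals 10, 19, 4 and 5 (log2 fold -3.58 ± 0.58, adjusted p = 2.42e-04). Its log2 fold was -4.77 without animal 22 and -2.96 without animal 26. In the CD+DHT pair, however, its pooled log2 fold was 0.44. Kmt2b, which in growing mouse oocytes is a main writer of H3K4 trimethylation, had 17.7 and 21.02 CPM, against 58.5 to 110.3 (-1.90 ± 0.37, adjusted p = 9.36e-04). Kmt2d had 111 and 214 CPM, against 475 to 575 (-1.57 ± 0.35, adjusted p = 0.0030). Setd1a had 25.304 and 14.7 CPM, against 38.6 to 123 (-1.77 ± 0.50, adjusted p = 0.014). Kmt2c (0.25, adjusted p = 0.43) and Kmt2a (0 counts in both F3 animals, 0.0555 to 4.53 CPM in F2 animals, adjusted p = 0.25) did not pass, nor did any H3K4 demethylase, Kdm1a having a log2 fold of -0.29 (adjusted p = 0.37).

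Of the 9 H3K9 writers, readers and corepressors, 3 were lower in F3, where 14.7% of all genes were lower, and the others did not pass. The 3 are also genes at a mean of at least 10 CPM, where 44.0% of genes passed in either direction. With GC adjusted 1 of the 3 passed, Cbx1. Cbx1 had 20.1 and 30.5 CPM in F3 animals, against 94.4, 154, 129 and 109 CPM in F2 animals in the same order (log2 fold -2.08 ± 0.32, adjusted p = 1.55e-04). Trim28, which recruits Setdb1 to transposable elements, had 77.6 and 108 CPM, against 138 to 372 (-1.24 ± 0.30, adjusted p = 0.0052). Ehmt1, a writer of H3K9 dimethylation, had 13.37 and 33.4 CPM, against 78.3 to 91.9 (-1.72 ± 0.39, adjusted p = 0.0031; -1.23 without animal 22 and -2.47 without animal 26). Suv39h1 went the other way without passing (34.6 and 28.2 CPM in F3, against 2.11 to 16.7; adjusted p = 0.073). Setdb1 (-0.43, 0.26) and Suv39h2 (-0.03, 0.96) did not pass.

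Of the deacetylases 1 was lower and 1 higher, where 14.7% of all genes were lower and 9.91% higher. Both are genes at a mean of at least 10 CPM, where 44.0% of genes passed in either direction. Sirt6 had 6.21 and 9.502 CPM in F3 animals, against 68.1, 59.9, 43.7 and 41.2 CPM in F2 animals (log2 fold -2.63 ± 0.64, adjusted p = 0.0054), and did not pass with GC adjusted. Sirt1 had 99.8 and 129 CPM, against 47.4, 49.7, 40.1 and 59.9 CPM (1.40 ± 0.28, adjusted p = 0.0012). Hdac2 (0.18, adjusted p = 0.71), Hdac3 (-0.67, 0.38), Hdac6 (-1.21, 0.34) and Hdac1 (-0.85, 0.76) did not pass. Among remodellers Smarca4 had 2.15 and 6.62 CPM in F3, against 14.65, 33.7, 34.8 and 65.3 CPM in F2 (-2.85 ± 0.82, adjusted p = 0.016; -2.27 without animal 22 and -3.81 without animal 26). Chd4 had 21.7 and 57.9 CPM, against 106 to 213 (-1.70 ± 0.48, adjusted p = 0.014; -1.19 without animal 22 and -2.52 without animal 26), and did not pass with GC adjusted. Smarca5 (-0.08, 0.93), Chd1 (-0.08, 0.89), Mbd2 (-0.63, 0.49) and Mbd3 (adjusted p = 0.067) did not pass.

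Transcript GC moved with this difference across all genes. Among genes in the lowest 10% of GC the median pooled log2 fold was 0.91 in the HFHS+Veh pair, 0.59 in the CD+DHT pair and 0.70 in the CD+Veh pair. In the highest 10% it was -2.005, -0.94 and -1.51. The 12 chromatin genes lower in F3 had a median transcript GC of 57.8% (47.5% for Cbx1 to 59.8% for Setd1b), and the 6 higher had 44.7% (40.6% for Bmi1 to 53.7% for Kdm4a). The share of counts from the 4857 genes with a transcript GC of at least 55% had a median of 6.67% in F1, 6.92% in F2 and 3.53% in F3 oocytes. Generation and any batch of libraries cannot be told apart here.

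Adjusted for transcript GC (20 bins per animal), 2164 of 12131 genes passed (17.8%), 1108 higher (9.13%) and 1056 lower (8.70%), where the same genes unadjusted gave 1247 and 1815. Of the 18 chromatin genes, 8 still passed: Kdm6b (log2 fold -5.71, adjusted p = 0.0029), Cbx1 (-1.99, 8.24e-04), Setd1b (-2.78, 0.0037), Smarca4 (-1.96, 0.034), Rnf2 (1.32, 0.0026), Sirt1 (1.18, 0.012), Eed (1.15, 0.046) and Kdm4a (2.39, 3.70e-04). Suv39h1 passed in addition (2.47, 0.021), which makes 9 of 42. Sirt6 (-1.94, 0.15), Bmi1 (0.41, 0.43), Kmt2b (-1.02, 0.073), Chd4 (-1.05, 0.053), Setd1a (-0.78, 0.12), Ehmt1 (-1.27, 0.10), Setd2 (0.63, 0.17), Kmt2d (-0.83, 0.36), Trim28 (-0.33, 0.49) and Jarid2 (-0.39, 0.51) no longer passed. Of 26 cumulus markers tested without this adjustment 2 were higher and 0 lower in F3, where 9.91% of all genes were higher, while of 18 oocyte markers 4 were higher and 5 lower. The cumulus markers summed to a median of 1535 CPM in F3 HFHS+Veh and 839 CPM in F2 HFHS+Veh, and the part of these in the result was not tested. F3 HFHS+Veh oocytes were also shallower (median 585662 counts, against 3193980 in F2 HFHS+Veh).

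**Figure D3:**
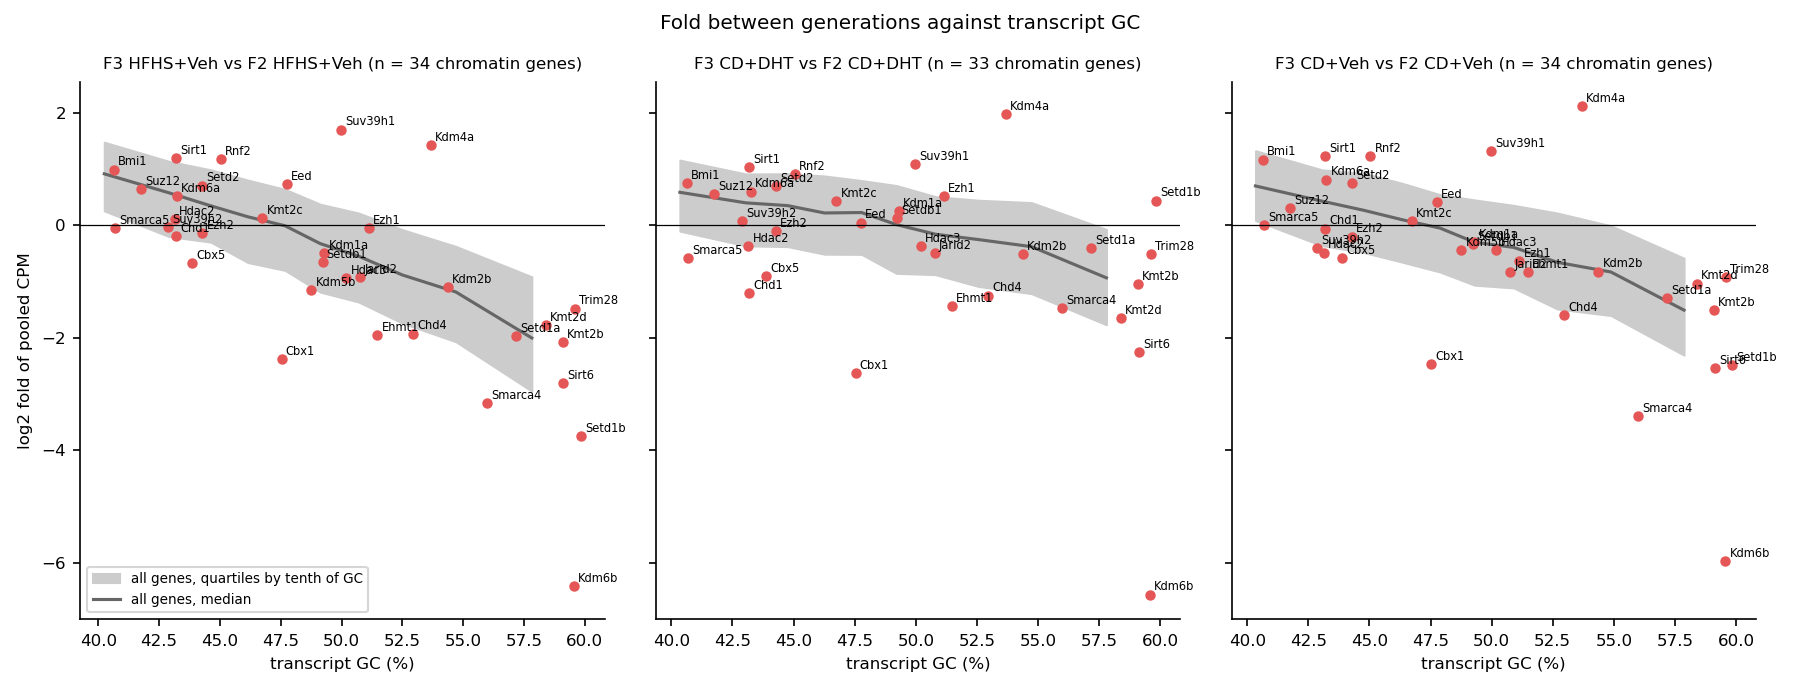
Pooled log2 fold of F3 over F2 against transcript GC (%) for the 3 treatment pairs: grey line and band are the median and quartiles of all genes by 10% step of GC, red points the chromatin genes of at least 10 CPM. The grey line falls with GC in each panel, to -2.005 at the highest step in the HFHS+Veh pair; Kdm6b and Cbx1 lie under it and Kdm4a above it in all 3.

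Further chromatin genes were called in both directions. The 6 lists of partners and relatives, chosen with earlier results in view, held 147 genes with a line, of which 141 were tested in this fit. Higher in F3 were 15 and lower 41, together 39.7%, beside 24.6% of all genes tested and 44.0% of those at a mean of at least 10 CPM; the lists were not restricted by level. Remodeller subunits had 13 of 42 lower and 3 higher. Arid1a, the DNA-binding subunit of SWI/SNF, was among those lower (log2 fold -2.16 ± 0.25, adjusted p = 1.21e-05), and Actl6a, an actin-related subunit, among those higher (1.58 ± 0.30, 9.36e-04). Acetylation genes had 10 of 31 lower, such as the bromodomain reader Brd3 (-2.93, 1.12e-05), and 2 higher. Further Polycomb genes had 7 of 24 lower, such as the PRC1 subunit Phc2 (-3.40, 6.67e-06), and 3 higher, such as the histone-binding Rbbp7 (1.55, 7.96e-04). H3K4 partners had 5 of 14 lower, such as Wdr5 (-1.97, 2.42e-04), and 2 higher. H3K36, H3K79 and H4K20 enzymes had 4 of 11 lower, such as Dot1l (-2.96, 2.13e-04), and 1 higher. Further H3K9 genes had 2 of 19 lower, Mphosph8 and Uhrf1, and 4 higher. The genes named here were those with the smallest p, chosen after their values were seen.

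Within F2, where animals allow a test, treatment of the F0 female gave no call. Of 11963 genes, 0 passed for CD+DHT against CD+Veh by edgeR (0%, and 220 at an unadjusted p under 0.05, with 2 by DESeq2). For HFHS+Veh against CD+Veh 0 passed (0%; 118 unadjusted, 1 by DESeq2), and for CD+DHT against HFHS+Veh 0 passed (0%; 125 unadjusted, 1 by DESeq2). Of 41 chromatin genes tested, 0 passed in each, with 1, 0 and 1 at an unadjusted p under 0.05. Hdac1 and Ring1 were too low to be tested. The median log2 fold of the 41 genes was 0.01 in CD+DHT against CD+Veh, 0.08 in HFHS+Veh against CD+Veh and -0.06 in CD+DHT against HFHS+Veh. For all genes it was -0.01, 0.02 and -0.02. The 3 comparisons share their groups pairwise. Of the 6 wider lists, 0 of 134 genes passed in any.

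The spread between animals sets what could be seen. The SD of log2(CPM + 1) between F2 animals of a group had a median of 0.38 over the 33 chromatin genes of at least 10 CPM (0.16 to 1.18) and 0.42 over 5957 genes at that level. Between oocytes of an animal it was 0.60 for the chromatin genes.

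The smallest p among chromatin genes belonged to Kdm5b, an eraser of H3K4 trimethylation. It had 3.12, 1.24, 11.3, 7.74 and 4.82 CPM in F2 CD+DHT animals 8, 9, 7, 6 and 17, against 10.32, 9.90, 11.6 and 14.6 CPM in F2 CD+Veh animals 13, 14, 2 and 3. Of the 5 DHT animals 4 lay below all 4 controls, and animal 7 lay within them (log2 fold -0.95 ± 0.41 SE, unadjusted p = 0.035, adjusted p = 0.9999 by edgeR). F2 HFHS+Veh animals had 10.29 to 12.5 CPM. Next in CD+DHT against CD+Veh, none passing, were Bmi1 (0.47 ± 0.25), Kdm6a (0.48 ± 0.28) and Rnf2 (0.23 ± 0.16) on the higher side. Kdm5a (-0.66 ± 0.49) and Chd4 (-0.39 ± 0.32) were on the lower side.

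In F2 HFHS+Veh against F2 CD+Veh, Bmi1 had 888, 630.1, 842 and 941 CPM in HFHS+Veh animals 10, 19, 4 and 5, against 577, 727, 561 and 659 CPM in CD+Veh animals 13, 14, 2 and 3, which overlap (0.44 ± 0.27, unadjusted p = 0.12). Sirt1 (0.39 ± 0.24) and Kdm6a (0.44 ± 0.29) were the other 2 of smallest p on the higher side. Kdm5a (-0.99 ± 0.53), Cbx1 (-0.25 ± 0.23) and Sirt6 (-0.40 ± 0.45) were those on the lower side, and none passed. In F2 CD+DHT against F2 HFHS+Veh these were Ehmt1 (0.30 ± 0.24), Sirt6 (0.45 ± 0.43) and Cbx3 (1.27 ± 1.26) on the higher side. On the lower side were Kdm5b (-0.98 ± 0.41), Setd1b (-0.46 ± 0.29) and Chd4 (-0.47 ± 0.32), again not passing.

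**Figure D4:**
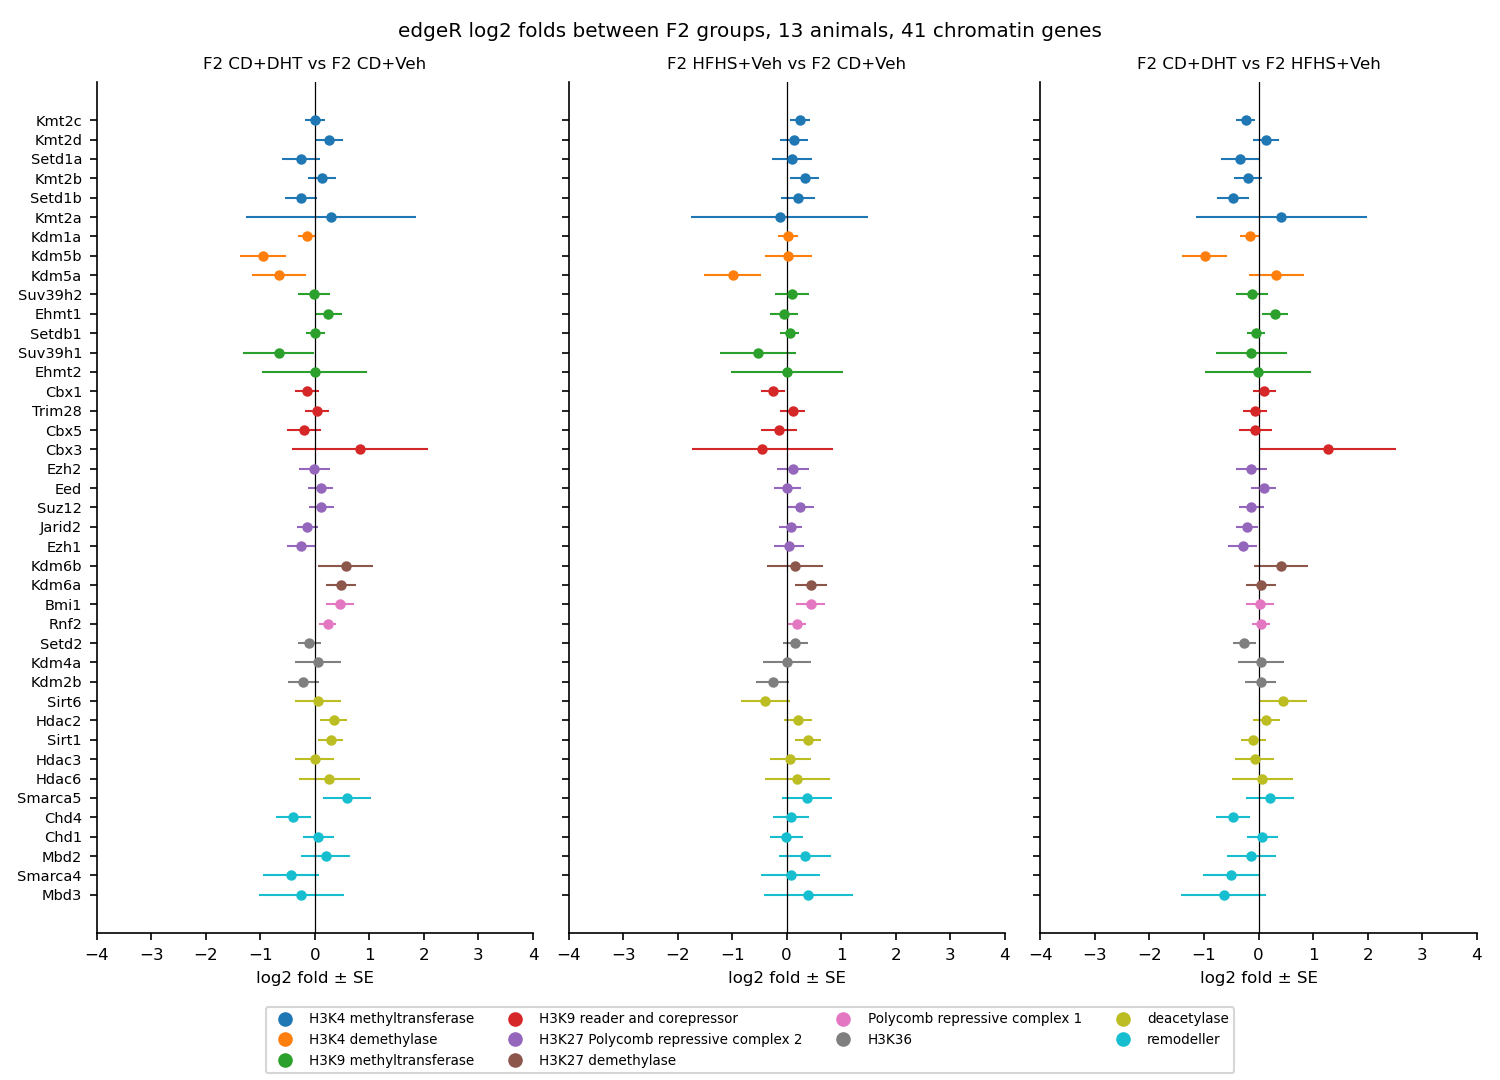
edgeR log2 folds (points) and standard errors derived from the fold and its F statistic (bars) of 41 chromatin genes between F2 groups. The fit held 13 animals, and colours show the class. No gene passed adjustment; Kdm5b lies at -0.95 in CD+DHT against CD+Veh and -0.98 against HFHS+Veh.

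F1 groups name no animal, so each is 1 sample of cells and nothing was tested. In F1 CD+DHT against F1 CD+Veh, 4 of 33 chromatin genes of at least 10 pooled CPM were past 1.5-fold, where 12.8% of 6126 genes were. Kmt2b was higher, at 76.1 CPM (95% interval 70.1 to 82.4) in CD+DHT and 50.1 CPM (47.2 to 53.1) in CD+Veh. Its log2 fold of 0.60 was 0.42 without CD+DHT oocyte 6, and it also fell short of 1.5-fold without CD+DHT oocyte 11 or CD+Veh oocyte 1, 2 or 11. Its oocytes overlapped, with a lowest, median and highest of 29.9, 64.2 and 94.8 CPM in CD+DHT and 18.96, 48.3 and 63.4 CPM in CD+Veh. Lower were Kdm5b (5.19 against 12.8 CPM), Cbx5 (14.43 against 23.6 CPM) and Sirt1 (25.06 against 38.7 CPM). The median of Sirt1 went the other way (34.8 CPM in CD+DHT oocytes, 31.0 in CD+Veh oocytes), and without CD+DHT oocyte 6 its log2 fold of -0.63 was -0.13; it also fell short without CD+Veh oocyte 2. Cbx5 fell short of 1.5-fold without CD+Veh oocyte 11 (-0.45 in place of -0.71) or 1. Setdb1 was the next on the higher side (0.48).

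By pooled CPM 1 to 3 genes passed in the F1 comparisons with HFHS, and more did by means or medians of oocytes. In F1 HFHS+Veh against F1 CD+Veh 1 of 34 genes passed 1.5-fold, where 8.93% of 6207 did. This was Kdm2b, at 14.22 CPM (13.11 to 15.4) in HFHS+Veh and 21.7 CPM (19.8 to 23.7) in CD+Veh, and it did not pass without any 1 of HFHS+Veh oocytes 1, 2, 6 and 13 and CD+Veh oocytes 1 and 6. By means of oocytes 4 of 34 genes passed, where 19.12% of all genes did, and by medians 4 of 34, where 13.8% did. Hdac3 (0.35) and Kdm6a (0.30) were highest and Chd1 (-0.28) next lowest. In F1 HFHS+DHT against F1 CD+Veh 3 of 34 genes passed, where 14.7% of 6103 did: Smarca5 was higher (211 against 129 CPM), and Kdm4a (26.61 against 48.0 CPM) and Suv39h1 (13.304 against 20.65 CPM) were lower. Without CD+Veh oocyte 6, Smarca5 (0.57 in place of 0.71) and Suv39h1 (-0.40 in place of -0.63) fell short of 1.5-fold, Suv39h1 also without HFHS+DHT oocyte 3 or 6. By means 7 of 34 passed, where 30.1% of all genes did, and by medians 11 of 33, where 30.03% did. Hdac3 (0.55) came next on the higher side.

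In F1 HFHS+DHT against F1 HFHS+Veh 1 of 33 passed, where 11.1% of 6152 genes did. It was Kdm4a, at 26.61 CPM (24.2 to 29.1) in HFHS+DHT and 51.4 CPM (49.3 to 53.6) in HFHS+Veh. Its oocytes ran from 0 over 18.5 to 56.9 CPM in HFHS+DHT and from 2.69 over 32.6 to 117 CPM in HFHS+Veh, and without HFHS+Veh oocyte 11 its log2 fold of -0.95 was -0.18. By means 5 of 34 passed, where 17.7% of all genes did, and by medians 8 of 33, where 23.1% did. Smarca5 (0.43), Sirt1 (0.43) and Suv39h1 (-0.53) were the next. The first 3 comparisons share the F1 CD+Veh oocytes.

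Within F3, more genes of all kinds passed 1.5-fold, and the chromatin genes did not exceed them. In F3 CD+DHT against F3 CD+Veh 5 of 32 passed, where 28.2% of 6073 genes did. Setd1b was higher, at 16.5 CPM (15.3 to 17.7) in CD+DHT and 3.35 CPM (2.90 to 3.85) in CD+Veh. Its oocytes ran from 0 over 8.37 to 29.6 CPM in CD+DHT and from 0 over 1.62 to 10.01 CPM in CD+Veh, so they overlap, and without CD+DHT oocyte 14 it fell short of 10 CPM. Ezh1, the PRC2 methyltransferase of resting cells, was higher (60.6 against 33.0 CPM). Chd1 (10.7 against 29.3 CPM), Cbx5 (9.08 against 17.9 CPM) and Ehmt1 (34.0 against 54.99 CPM) were lower. The highest control oocyte for Chd1, at 788 CPM, was oocyte 21, which stood apart above. Leaving out any 1 oocyte gave Chd1 a log2 fold of -1.61 to -1.18 (-1.46 with all), but by medians of oocytes it was 0.31. For Ehmt1 the log2 fold was -0.69 with all oocytes, -0.13 without F3 CD+Veh oocyte 3 and 0.25 by medians, and it also fell short without F3 CD+DHT oocyte 14. Without oocytes 19 and 21, 6 of 32 passed, with the share of all genes at this setting not given. Across all genes the median log2 fold was -0.14 in the lowest 10% of transcript GC and 0.25 in the highest 10%; Setd1b has 59.8% GC, Chd1 43.2% and Cbx5 43.9%, and the part of GC was not tested.

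In F3 HFHS+Veh against F3 CD+Veh 6 of 31 passed, where 28.0% of 5848 genes did, and all 6 were lower. They were Ehmt1 (22.45 against 54.99 CPM), Kdm2b (13.05 against 23.5 CPM), Setd1a (20.5 against 34.7 CPM), Kdm4a (69.3 against 114 CPM), Sirt6 (7.70 against 11.8 CPM) and Trim28 (91.4 against 138 CPM). Trim28 ran from 44.9 over 86.8 to 179 CPM in HFHS+Veh and from 6.46 over 130 to 249 CPM in CD+Veh. Kdm4a turned to a log2 fold of 1.43 by oocyte medians (60.7 against 22.597 CPM), and was -0.07 without F3 CD+Veh oocyte 1, which held 1032 CPM; it also fell short of 1.5-fold without CD+Veh oocyte 23 or oocyte 7 of HFHS+Veh animal 22. Setd1a (-0.76) fell short without CD+Veh oocyte 3 (-0.56) or oocyte 1 of that animal. Sirt6 turned to 0.63 by medians and to 0.39 by means, and was -0.21 without F3 CD+Veh oocyte 5. Sirt6 (-0.62) and Trim28 (-0.60) lay so near 1.5-fold that leaving out any of 10 single oocytes ended it for each: CD+Veh oocytes 3, 5 and 11 and 7 of HFHS+Veh for Sirt6, and CD+Veh oocytes 5, 15, 23 and 24 and 6 of HFHS+Veh for Trim28. Without animal 22, whose oocytes carry the contradictory generation label, 5 of 32 genes passed, where 33.1% of all genes did. Ehmt1 (-0.72), Kdm2b (-0.60) and Setd1a (-1.24) were among them, Hdac3 was lower and Kdm5a higher in addition, and Kdm4a (-0.55), Sirt6 (-0.31) and Trim28 (-0.36) fell short. Without oocytes 19 and 21 the count was again 6, with the share of all genes not given. Hdac2 (0.55) and Ezh1 (0.41) were highest. Transcript GC moved here too, with a median log2 fold of 0.17 in the lowest 10% of genes by GC and -0.45 in the highest 10%, and its part was not tested. The 2 F3 comparisons share the CD+Veh oocytes.

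**Figure D5:**
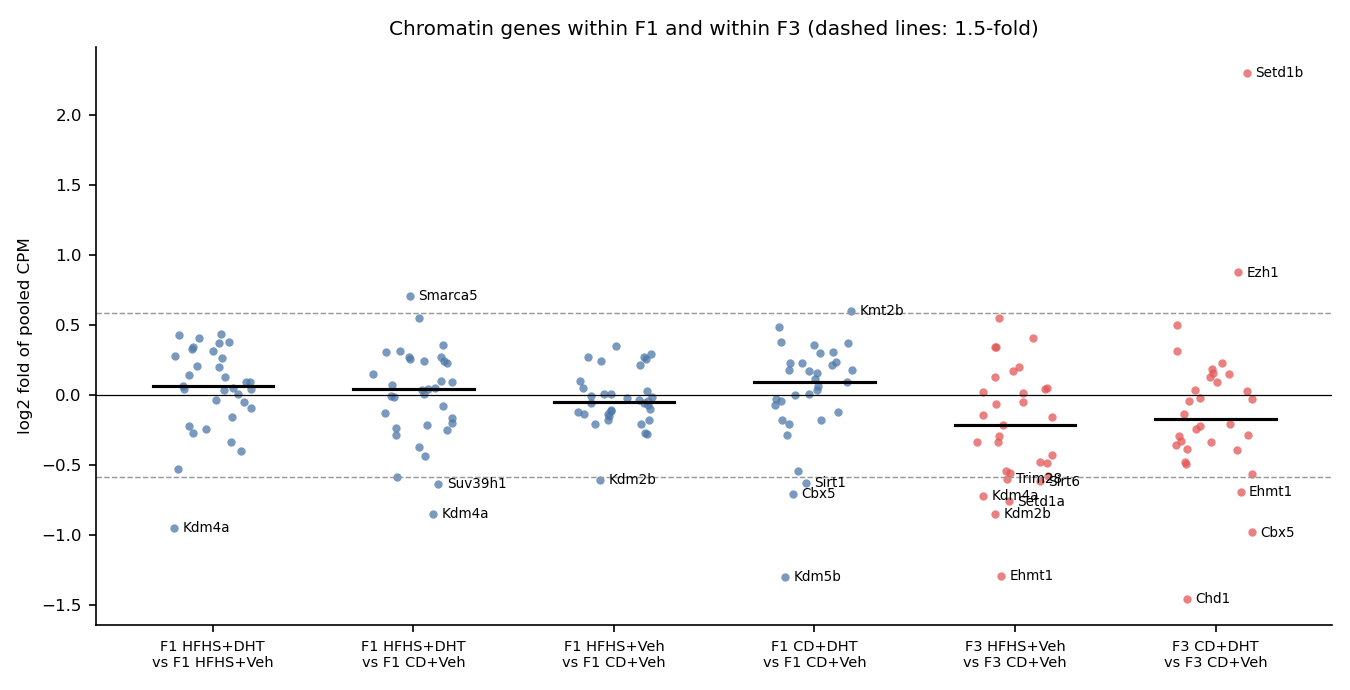
Pooled log2 folds of the chromatin genes of at least 10 CPM in each F1 (blue) and F3 (red) comparison; bars are medians, dashed lines 1.5-fold, and genes past them are named. The F1 medians lie between -0.05 and 0.09, and those of F3 at -0.22 and -0.17.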

How the data were processed

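RNA of single MII oocytes was measured by Smart-seq2, per the labels' protocols. The authors deposited raw counts per gene symbol and an RPKM table of the same 202 libraries. Per the submitters' processing notes, the authors' tools included STAR 2.4.2a and Seurat 2.0 with the genome build mm10. How reads were assigned to genes, and whether by strand, is not stated in the sources used here. Spike-ins and eGFP were left out, and 492 repeated symbol lines were summed. Total counts of each oocyte ranged from 133654 to 16359078 among the kept.

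For F2, counts were summed per animal and fitted with edgeR 4.0.16 (R 4.3.3; quasi-likelihood test, TMM, filterByExpr, group as the only term, Benjamini-Hochberg adjusted p under 0.05); DESeq2 and limma were alternatives. The standard error (SE) of an edgeR log2 fold was derived as its absolute value over the square root of the F statistic of its test. The fits were tested on simulated data. F1 and F3 groups were pooled into CPM with exact Poisson 95% intervals, and a gene counted at 1.5-fold with at least 10 CPM in the higher group. Positions and transcript GC come from GENCODE vM21 on GRCm38, matched by symbol for 43 of 43 genes. Transcript GC is the median over the protein-coding transcripts of a gene, short ones included. No 2 libraries were identical (0 pairs), and p-values measure the spread between animals as read from the titles. Named in each F2 comparison are genes past the threshold or else the 3 smallest p in each direction, and in F1 and F3 those past 1.5-fold or else the 2 with the largest folds in a direction. F3 HFHS+Veh against F2 HFHS+Veh was fitted likewise over 15 animals; this comparison and the GC adjustment were added after the values had been seen. The members and lists were chosen with earlier results of these data known. Python 3.11.15 was used.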

Additional observations from a re-analysis of the deposited data

Results flagged for a closer look

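Over 99 pairs of a chromatin gene and an F2 group, 5 had an animal far from the others of its group by Dixon's criterion. Chance flags about 1 in 20 groups. In F2 HFHS+Veh, animal 10 accounted for 3: Suv39h2 stood at 312.4 CPM, against 154 to 168 in the other animals, Smarca5 at 491.6 CPM, against 160 to 209, and Rnf2 at 282.2 CPM, against 311 to 316. The characteristics of the 5 oocytes of animal 10 name F3. In F2 CD+DHT, Kdm1a stood at 167.8 CPM in animal 7, against 106 to 124 in the others, and Setd2 at 230.4 CPM in animal 8, against 139 to 157.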

How the results depend on the processing

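With groups by title, no paired analysis was possible because no compared groups share an animal number, and groups that name no animal give no test. In F2 the counts stayed at 0 genes and 0 chromatin genes in each comparison without any 1 animal (0 to 0) and under RLE scaling, no filter, limma, the stricter oocyte filter, oocytes without contradictory labels and the GC adjustment; DESeq2 called 2, 1 and 1 genes for CD+DHT against CD+Veh, HFHS+Veh against CD+Veh and CD+DHT against HFHS+Veh. For F3 HFHS+Veh against F2 HFHS+Veh the count of genes was 1866 without contradictory labels, 2164 with transcript GC adjusted and 0 by the characteristics; for chromatin genes it was 9, 9 and 0. Leaving out 1 animal gave 1660 to 3415 genes and 7 to 19 chromatin genes. By the characteristics, log2 folds turned for Ehmt1 (0.28), Jarid2 (0.26), Kdm4a (-0.11), Kdm6b (0.80), Kmt2d (0.24) and Sirt6 (0.32), as the animals change groups; limma turned Kdm4a to -0.069, and the cause was not tested. These alternatives, the pooled values without contradictory generation labels, and the comparison itself, were chosen after seeing the data.

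Counts at 1.5-fold among F1 and F3 groups moved with the weight of oocytes. With means of oocyte CPM they were 4 for F1 HFHS+Veh against CD+Veh, 7 for F1 HFHS+DHT against CD+Veh and 5 for F1 HFHS+DHT against HFHS+Veh, and with medians 4, 11 and 8. A minimum of 20 CPM gave 3 for F3 CD+DHT against CD+Veh. Leaving out 1 oocyte gave 2 to 5 for F1 CD+DHT against CD+Veh, 0 to 2 for F1 HFHS+Veh against CD+Veh, 2 to 5 for F1 HFHS+DHT against CD+Veh, 0 to 4 for F1 HFHS+DHT against HFHS+Veh, 5 to 8 for F3 CD+DHT against CD+Veh and 3 to 9 for F3 HFHS+Veh against CD+Veh. Between generations it gave 19 to 24 for CD+Veh, 17 to 19 for CD+DHT and 24 to 25 for HFHS+Veh. For the 20 CPM minimum and the left-out oocytes the share of all genes is not given. These counts therefore do not tell whether all genes moved alike. Log2 folds turned by medians for Sirt1 in F1 CD+DHT (0.17) and, in F3, for Chd1 (0.31) and Ehmt1 (0.25) in CD+DHT and Kdm4a (1.43) and Sirt6 (0.63) in HFHS+Veh; by means Sirt6 turned to 0.39. The cause was not tested. Most groups name no animal, and oocytes weigh in a pool by their depth.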
